A study of Mus musculus with 4 samples.

Results

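Col12a1 and 8 other non-fibrillar collagen genes were read on 4 single-colour oligonucleotide arrays of total RNA from the mitral valve of mice. The genes were Col12a1, Col14a1 and Col9a1 (collagens carried on the surface of fibrils), Col6a1, Col6a2 and Col6a3 (the beaded filament collagen), Col8a1 (a short-chain network collagen), and Col15a1 and Col18a1 (multiplexins). All probe sets annotated to exactly 1 of these genes were taken, which gave 14 of the 22690 probe sets and 9 of 12394 named genes. Of the 9 genes, 5 had 2 probe sets and 4 had 1, and 13 probe sets, covering all 9 genes, passed a filter on mean intensity. Col12a1 was chosen on its high reading in homozygous valve, and the other genes were added by collagen class, so its values are given as a description, with no test.

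The design held 1 array from wild-type valve (WT), 2 from valve heterozygous for a mutant fibrillin-1 allele (Het replicates 1 and 2) and 1 from valve homozygous for it (Hom). Fibrillin-1 is the glycoprotein of extracellular microfibrils. The Hom label names the allele as C1039G, and the Het labels leave out the substituted residue, which was taken to be the same. Strain, age, sex and whether animals were pooled are not given in the sources used here. Technical spread and spread between animals therefore cannot be told apart. One question of the design was whether valve transcripts differ with 1 or both copies mutant. Values below are intensities after each array was centred on a common median. Where 4 are listed, WT comes first, the Het replicates follow by number, and Hom is last.

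Fibril-associated collagens with interrupted triple helices (FACITs) do not form fibrils of their own. Collagens XII and XIV lie on collagen I fibrils in tendon, ligament and other dense connective tissue, and collagen IX lies on collagen II fibrils in cartilage. Collagen VI joins 3 different chains, encoded by Col6a1, Col6a2 and Col6a3, into beaded microfilaments around cells. Collagens XV and XVIII carry glycosaminoglycans and sit at basement membranes. Valve leaflets are layered connective tissue rich in collagen, elastic fibres and proteoglycans.

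Het replicate 2 stood apart from the other arrays. The 11 cardiomyocyte markers summed to an intensity of 15753 there against 24138 to 33008 on the others, and 13 macrophage markers to 6866 against 3280 to 3965. The 15 cardiomyocyte probe sets kept had a median of -1.04 log2 units from WT in Het replicate 2. Not all were low there, since Myl7 (1621, 1306, 3040 and 1271) was highest and Myl4 (1916, 1418, 1818 and 1138) was near WT. The ratio of Actb 3' to 5' signal, which rises as RNA degrades, was 3.04 there against 2.16 to 2.25. Centring left the median probe set 0.18 log2 units above WT in Het replicate 2, where it lay at -0.03 in Hom and -0.004 in Het replicate 1. In bulk tissue, fewer cells of a type and less RNA per cell cannot be told apart. The part of tissue makeup and RNA quality in the values below was not tested.

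Promoter windows were available for 7 of the 9 genes, as 10 windows of 300 bases from RefSeq (GRCm38.p6), each from 250 bases before a transcript start to 50 after. Windows are shown for Col9a1 and Col15a1, whose probe sets read below WT in both Het arrays, and for Col6a1, whose probe set read above. They are examples, since other genes with windows read the same way. Col6a3 and the Col8a1 probe set kept also read below WT in both, and 1 probe set of Col18a1 above. Col9a1 has a pair of start sites and so a pair of windows. Capitals mark matches, on either strand, to the CCAAT box (CCAAT), the GC box (GGGCGG), the TATA box (TATAAA) and the AP-1 element (TGANTCA), and no matches overlap in the windows shown. The windows lie at chr1:24177360-24177659 (+), chr1:24194953-24195252 (+), chr4:47207762-47208061 (+) and chr10:76725995-76726294 (-).
Col9a1 upstream start: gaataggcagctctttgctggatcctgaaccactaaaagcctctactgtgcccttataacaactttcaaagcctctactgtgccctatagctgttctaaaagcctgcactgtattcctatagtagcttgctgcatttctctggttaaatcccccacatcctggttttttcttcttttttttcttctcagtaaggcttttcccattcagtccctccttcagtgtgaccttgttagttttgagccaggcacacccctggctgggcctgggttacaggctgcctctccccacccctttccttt
Col9a1 downstream start: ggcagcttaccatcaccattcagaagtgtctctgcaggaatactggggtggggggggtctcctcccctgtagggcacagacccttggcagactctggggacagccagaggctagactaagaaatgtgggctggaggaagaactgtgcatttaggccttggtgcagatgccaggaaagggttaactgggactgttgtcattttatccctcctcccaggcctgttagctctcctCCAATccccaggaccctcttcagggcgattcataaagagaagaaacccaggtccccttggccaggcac
Col15a1: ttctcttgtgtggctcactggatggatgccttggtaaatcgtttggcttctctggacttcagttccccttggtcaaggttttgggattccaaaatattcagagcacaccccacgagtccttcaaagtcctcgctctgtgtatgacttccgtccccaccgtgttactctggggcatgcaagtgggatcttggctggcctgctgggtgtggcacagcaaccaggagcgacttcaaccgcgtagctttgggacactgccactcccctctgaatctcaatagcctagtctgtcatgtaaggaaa
Col6a1: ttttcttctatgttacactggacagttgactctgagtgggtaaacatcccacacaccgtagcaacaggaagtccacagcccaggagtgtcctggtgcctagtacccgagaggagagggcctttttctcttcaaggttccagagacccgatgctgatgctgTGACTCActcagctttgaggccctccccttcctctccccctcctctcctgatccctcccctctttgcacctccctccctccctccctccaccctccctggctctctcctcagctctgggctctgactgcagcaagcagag

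The downstream Col9a1 window held 1 CCAAT match, and the upstream one held none of the 4 motifs, nor did that of Col15a1. The Col6a1 window held 1 AP-1 match. Over the 10 windows, the CCAAT box was found in 2, the GC box in 4, the AP-1 element in 1 and the TATA box in 0. All GC box matches lay in windows not shown, those of Col6a2, Col8a1 and Col18a1. Among 32544 distinct windows of the same table, the shares with a match were 37.4%, 35.9%, 7.79% and 13.6%. A match is a run of letters and was not tested as a binding site. The GC content of the Col9a1 windows was 47.3% upstream and 55.7% downstream, that of Col15a1 52.3% and that of Col6a1 57.3%, with a median of 53% over all windows.

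Col12a1 encodes the chain of collagen XII, the FACIT that links fibrils to neighbouring matrix in tissue under load. Its probe set, 1427391_a_at, read 71 in WT, 58.9 and 55.8 in the Het arrays and 274.4 in Hom. The Hom array alone was high, 3.86-fold above WT and 4.79-fold above the mean of the Het arrays. After centring the Het arrays, for their part, lay close together below WT, by 0.27 and 0.35 on the log2 scale. The deposited intensities, before centring, were 73.3, 61.5, 48.8 and 291.1, with the same array high and the Het arrays further apart.

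The Hom reading of Col12a1 has no second probe set to check it, since 1427391_a_at was the only one carrying the gene's name. Without the Hom array its mean intensity would have been 61.9, just under the filter limit of 62.6, so it entered the fit through the array on which it is high. Of 11313 probe sets kept, 2 (Col12a1 among them) had a Hom minus Het difference as high as its 2.26 log2 units, and 8 had a Hom minus WT difference as high as its 1.95. It was also 1 of 2 probe sets at least 2-fold higher in Hom than on each of the other 3 arrays, 0.0177% of those kept. These ranks describe how the gene was chosen. The mean Het minus WT difference was -0.31, given with no test for the same reason.

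**Figure D1:**
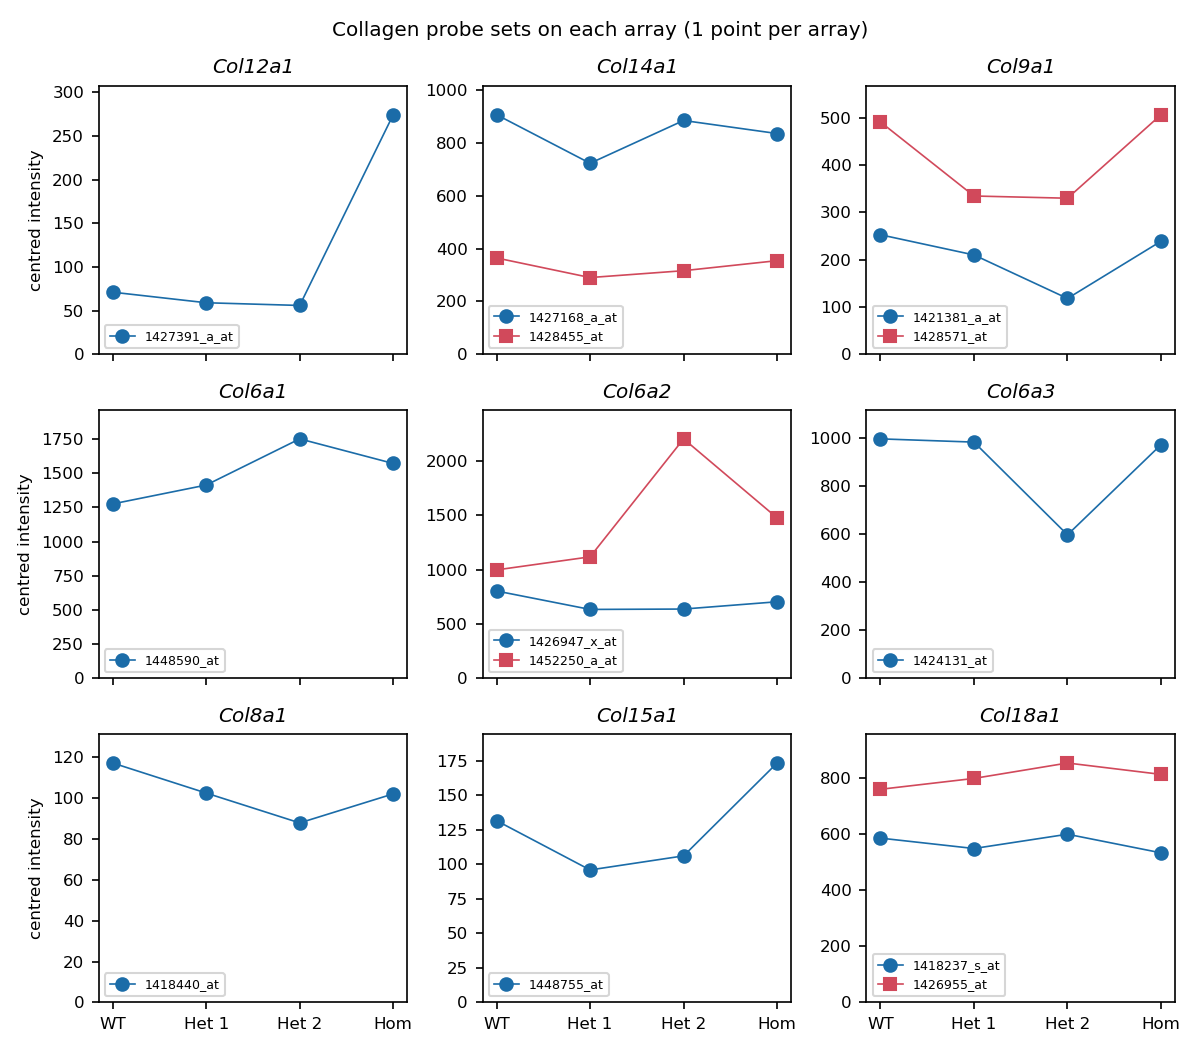
Centred intensity (linear axis from 0) of the 13 collagen probe sets on the WT array, both Het arrays and the Hom array, 1 point per array and 1 panel per gene. Col12a1 lies between 55.8 and 71 on 3 arrays and reaches 274.4 in Hom, while both Col9a1 probe sets dip in the Het arrays.

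Among named probe sets, those whose profile over the 4 arrays was nearest to that of Col12a1 were Ptdss2, Cxcl13, Rapgef3, Leng8 and Lsm7. Likeness was the root mean square difference between log2 profiles centred on their own mean, and it ran from 0.42 to 0.54 log2 units over these 5. Ptdss2, an enzyme of phosphatidylserine synthesis, read 126, 115.4, 122.1 and 280. Cxcl13, a B cell chemokine, read 97.6, 80.5, 63 and 168.9. All 5 were highest in Hom, with Hom minus WT differences of 0.49 to 1.37. A Hom peak was favoured by picking them for likeness to Col12a1. Without the Hom array Leng8 (86.7, 39.8, 35.6 and 121.8) would have fallen under the filter limit, as Col12a1 would.

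For 3 of these genes other probe sets existed, and most did not share that pattern. The other Cxcl13 probe set, which fell below the filter, gave a Hom minus WT difference of -0.27. The other 3 of Rapgef3, a guanine nucleotide exchange factor activated by cyclic AMP, gave 0.25, -0.34 and -1.71 (the last with Hom below the floor), against 1.37 for the near one. Of the 6 others of Ptdss2, 1 gave 1.07, with WT below the floor and a Hom intensity of 39.9, and the rest lay between 0 and 0.12. Among the other collagens here the nearest to Col12a1 was Col15a1, 53rd in likeness of 10395 probe sets, at 0.66 log2 units.

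**Figure D2:**
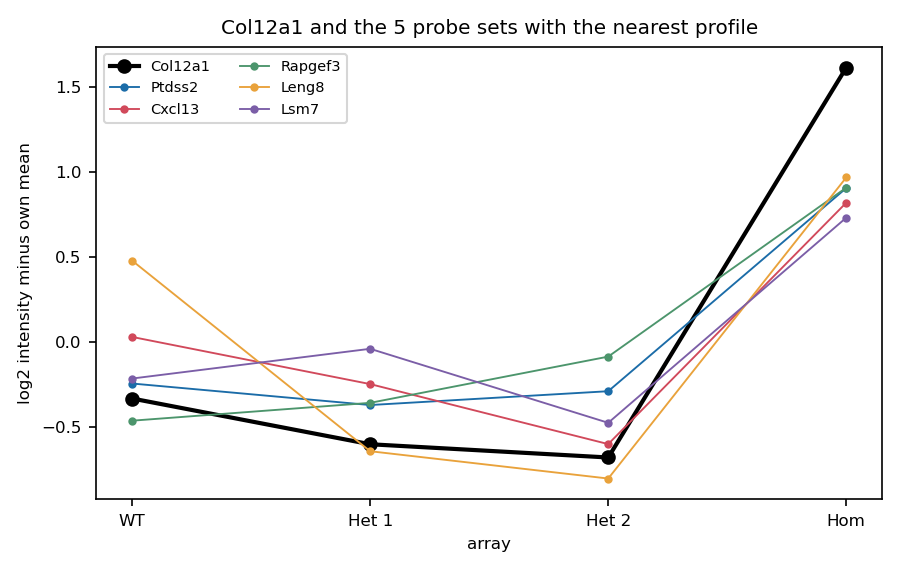
Log2 intensity minus the probe set's own mean over the arrays (vertical axis), by array, for Col12a1 and the 5 named probe sets nearest to it, 1 point per array. Every line peaks in Hom, which picking by likeness to Col12a1 favours, and the Col12a1 line has the widest range.

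Col14a1 encodes collagen XIV, the closest relative of collagen XII in this set. Its probe set 1427168_a_at read 906.9, 723, 885.1 and 835.6, and 1428455_at read 364.3, 290.1, 316.1 and 354.1. Both were highest in WT and lowest in Het replicate 1, and Hom lay within 0.12 log2 units of WT in each. The Hom minus WT differences were -0.12 (95% interval -1.33 to 1.10) and -0.04 (95% interval -1.25 to 1.16).

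Col9a1 encodes a chain of collagen IX, the FACIT of cartilage. Its probe set 1428571_at read 491, 334.5, 329.8 and 506.4, and 1421381_a_at read 252.5, 209.8, 117.8 and 238.8. Hom minus WT was 0.04 and -0.08, and both Het arrays read lower than WT, by 0.55 and 0.57 on the log2 scale in the first probe set and by 0.27 and 1.10 in the second. The mean Het minus WT differences, -0.56 (SE 0.49) and -0.68 (SE 0.52), were the lowest of the 13 probe sets but did not pass limma's test (adjusted p = 0.9999 for each). Their 95% intervals ran from -1.61 to 0.48 and from -1.80 to 0.43. In the second probe set Het replicate 2 sets the size, since Het replicate 1 alone gave -0.27 and Het replicate 2 alone -1.10.

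Markers of tendon and cartilage-like valve cells also read low in both Het arrays. Of the 9 genes on that list, 4 (Acan, Comp, Fmod and Tnmd) had 9 probe sets kept. All 9 probe sets read below WT in both Het arrays, against 21% of all probe sets kept. The summed intensity of the 8 genes on the array was 1620 in WT, 1029 and 1159 in the Het arrays and 1529 in Hom. Each gene entered the sum by its probe set of highest mean, and Fmod held most of it, at 980.2, 627.5, 752.1 and 1006.2. Acan, the aggrecan core protein of cartilage, read 102.1, 45.5, 55.1 and 66.3. Fmod, fibromodulin, which binds collagen fibrils, contributed 6 of the 9 probe sets, one of them at 702.2, 389, 358.3 and 615.7. All but that one carry a suffix that marks probes that may cross-hybridise with other transcripts. Tnmd (tenomodulin), known from tendon, read 139.8, 70.5, 45.5 and 48.4, low in Hom as well, where Col9a1 was near WT. Cnmd, chondromodulin, was below the floor on every array. Whether these cells account for the Col9a1 values was not tested.

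The probe sets of the 3 collagen VI chains showed no common direction against WT, and none passed limma's test. Col6a1 (1448590_at) read 1276, 1414, 1752 and 1572, lowest in WT. Col6a3 (1424131_at) read 996.9, 983.4, 597.3 and 972.6, level on 3 arrays and low in Het replicate 2 alone. The mean Het minus WT difference was 0.30 (SE 0.49) for Col6a1 and -0.38 (SE 0.51) for Col6a3, each with a limma adjusted p of 0.9999. Without Het replicate 2 the Col6a3 value became -0.02 and that of Col6a1 0.15, so the gap between them rests mostly on that array.

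Col6a2 gave opposite readings by its 2 probe sets, although both are annotated to the same sequence record. Probe set 1426947_x_at read 802.8, 633.2, 636.7 and 703.7, highest in WT. Probe set 1452250_a_at read 996.8, 1117, 2202 and 1475, lowest in WT and highest in Het replicate 2. The Het minus WT differences were therefore -0.34 and 0.65, and those of Hom from WT -0.19 and 0.57. Of the second Het value, Het replicate 1 alone gave 0.16 and Het replicate 2 alone 1.14. The suffix of the first marks probes that may cross-hybridise with other transcripts. No direction is given for the gene. Col6a2 and Col6a1 are neighbouring genes on chromosome 10.

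Col15a1 and Col18a1 encode the multiplexins, collagens of vascular and epithelial basement membranes. Col15a1 (1448755_at) read 131.7, 96, 106.2 and 173.5. Both Het arrays were low and Hom was high, so the Hom minus Het difference was 0.78 (SE 0.49, limma adjusted p = 0.9999, 95% interval -0.26 to 1.83). Apart from Col12a1 it was the highest Hom minus Het difference of the set, and 137 of all probe sets kept were at least as high. Col18a1, whose carboxyl end yields endostatin, read 585.1, 548.1, 599 and 532.7 (1418237_s_at) and 759, 797.7, 852.6 and 812.1 (1426955_at). Its probe sets stayed within 0.17 log2 units of WT on every array.

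Col8a1, a short-chain collagen of vessel walls and endothelium, read 117.1, 102.4, 87.8 and 102 by 1418440_at. WT was highest and Het replicate 2 lowest, with a mean Het minus WT difference of -0.30 (SE 0.49). Its other probe set, 1418441_at, read between 2.9 and 4.3 on all arrays, far under the floor of 19, and was left out by the filter.

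**Figure D3:**
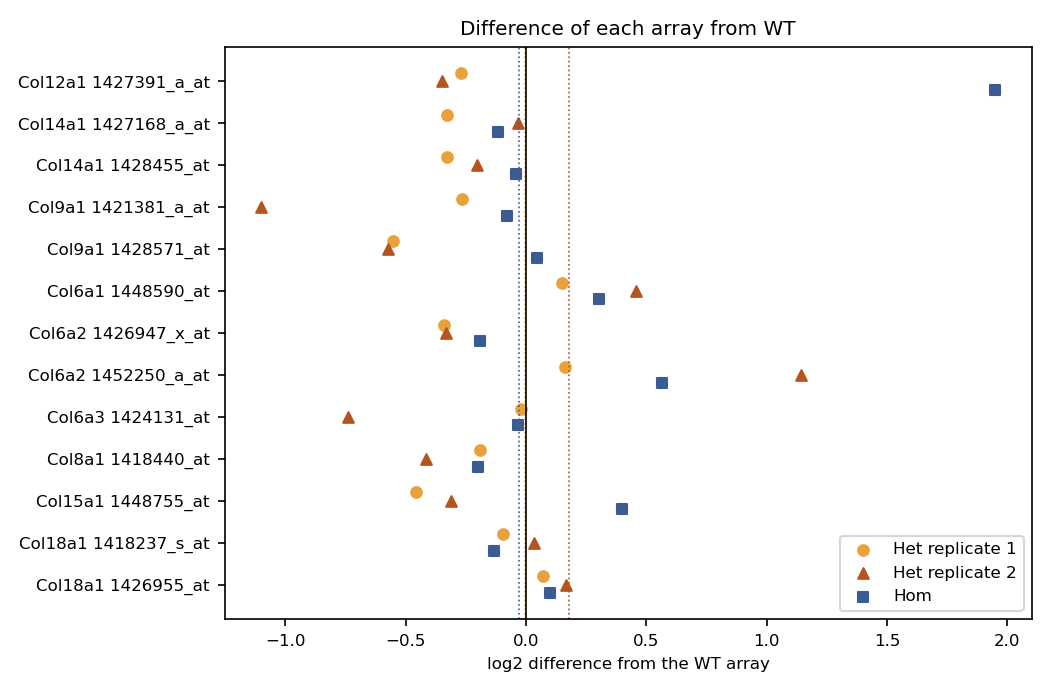
Log2 difference of each array from the WT array (horizontal axis) for the 13 probe sets kept, with Het replicate 1 as circles, Het replicate 2 as triangles and Hom as squares. Dotted lines mark the median over all 11313 probe sets for each array. Het points lie left of 0 for 9 probe sets, and Hom lies beyond 1 for Col12a1 only.

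Across the set, 9 of 13 probe sets (8 of 12 without Col12a1) read below WT in both Het arrays, against 21% of all probe sets kept, and 3 read above WT in both, against 33.9%. The 9 belonged to Col12a1, Col14a1 and Col9a1, to Col6a3 (by 0.02 in Het replicate 1), Col8a1 and Col15a1, and to 1 probe set of Col6a2. The median Het minus WT difference of the 13 was -0.30, where that over all probe sets kept was 0.08. After centring, the Het arrays differed from each other by a median of 0.15 log2 units over the 13, and by 0.40 over all. Centring had shifted Het replicate 2 by 0.19 and Het replicate 1 by -0.06, so these gaps depend on the scaling. The 4 genes with 2 probe sets kept count as separate probe sets here and are not independent. No probe set was called by limma for Het minus WT, 0% of 11313, and 120 passed an unadjusted p of 0.05, none of them among the 12 tested here.

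For Hom against Het, 6 of 13 probe sets read above both Het arrays in Hom, against 18.7% of all, and 1 read below both, against 36.8%. The place of Col12a1 among the 6 was fixed by how it was chosen, and without it 5 of 12 read above. The 6 were those of Col12a1 and Col15a1, both of Col9a1, and 1 each of Col14a1 and Col6a2. Het and Hom were both compared with other arrays of the same 4, so these counts share arrays with those above. With the scaling as deposited, or after quantile normalization, 11 of 13 (10 of 12 without Col12a1) read above both Het arrays, against 30.0% and 27.9% of all, so the count depends on the scaling. For Hom against WT, 0 of the 12 other probe sets were at least 2-fold apart, where 1.22% of all were, and they lay between -0.20 and 0.57. Col12a1 was 2-fold apart, as chosen. Limma called 0% of probe sets in either comparison, and the 12 tested here had adjusted p-values of 0.9999, with 56 and 95 of all probe sets passing an unadjusted 0.05 for Hom minus WT and Hom minus Het.

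**Figure D4:**
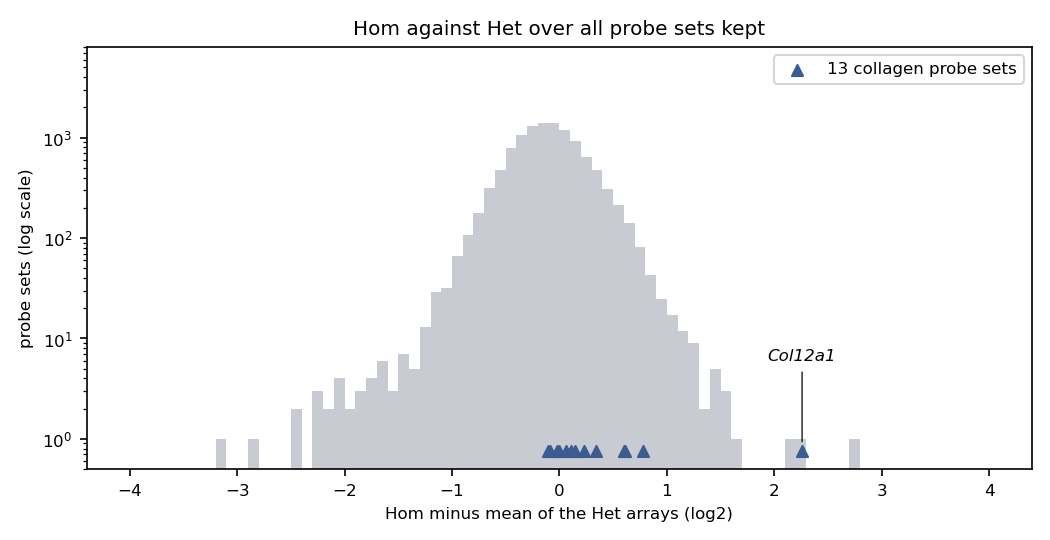
Number of probe sets (log scale) by Hom minus mean Het difference on the log2 scale, over the 11313 kept. Triangles mark the 13 collagen probe sets, of which Col12a1 lies at 2.26 and the other 12 between -0.11 and 0.78.

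Other genes of the collagen matrix were followed by lists. For the counts below, 21% of all probe sets kept read below WT in both Het arrays and 33.9% above. Of 11 other FACIT, beaded and short-chain collagens only Col16a1, another FACIT, passed the filter, at 259.1, 199.3, 171.6 and 254.5. It shared the order of Col9a1, with WT and Hom above both Het arrays. Of 14 fibrillar collagen probe sets (8 genes), 11 read below WT in both Het arrays and none above, and the medians were -0.29 and -0.76 log2 units in Het replicates 1 and 2 and -0.15 in Hom. Col1a1, a chain of the fibrils that collagens XII and XIV coat, read 1214, 747.9, 344.5 and 534.1 and was the one fibrillar probe set 2-fold apart between Hom and WT. Col11a1, at 170.6, 107.5, 45.7 and 110.7, was also lower in Hom than in WT, with a Hom minus WT difference of -0.62. The 2 highest such differences among fibrillar probe sets were both of Col5a1, at 0.06 and 0.40.

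Basement membrane and transmembrane collagens (9 probe sets of 7 genes) read below WT in both Het arrays at 4 and above at 1. Their medians were -0.10 and -0.31 in the Het arrays, by number, and -0.03 in Hom. The lowest Hom minus WT differences were those of Col4a3 (-0.58) and Col25a1 (-0.39), and the highest those of Col7a1 (0.17) and Col4a2 (0.14).

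Proteins that bind FACIT or beaded collagens were read by 25 probe sets of 14 genes, 13 of them below WT in both Het arrays and 4 above. Tnc, tenascin C, a matrix glycoprotein of remodelling tissue, had the highest Hom minus WT difference, 0.88, at 135.7, 151.1, 183.5 and 249.6. Tgfbi, which binds collagen VI, followed at 0.50. The lowest were a pair of Fmod probe sets, at -0.49 and -0.36, but the other probe sets of that gene ran from -0.25 to 0.40. Comp and Fmod also stand in the list of tendon and cartilage-like markers.

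Collagen receptors (10 probe sets of 7 genes) had medians near WT in Het replicate 1 and Hom, and -0.33 in Het replicate 2. Cspg4, a proteoglycan receptor of collagen VI, had the highest Hom minus WT difference, 0.44, at 79.7, 88.9, 77.2 and 108. Ddr1, a collagen-binding kinase, gave the lowest by one probe set (-0.25) and 0.18 by another, and Antxr1 gave -0.22. Synthesis and processing enzymes (19 probe sets of 14 genes) were split, with 5 below WT in both Het arrays and 6 above. P4ha2, a prolyl hydroxylase of collagen, gave 0.79 in Hom, at 85.3, 153.4, 105 and 147.7, and P3h1 gave 0.45. Both Plod2 probe sets, for a lysyl hydroxylase, were lowest, at -0.53 and -0.33. No probe set on these 6 lists passed limma's test in any of the 3 comparisons.

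Interstitial cell and fibroblast markers, the cells expected to make most of these collagens, were present on all arrays. All 10 genes of that list passed the filter, in 17 probe sets. Of these, 8 read below WT in both Het arrays, against 21% of all probe sets kept. The summed intensity of the 10 genes was 37034 in WT, 34557 and 26367 in the Het arrays and 30515 in Hom. The median Hom minus WT difference was -0.15. The highest Hom minus WT differences of the list were 0.31 and 0.40, by a pair of Gsn probe sets, and the lowest -0.41 (Fap) and -0.40 (Vim). The part of these cells in the Col12a1 reading was not tested. Summed endothelial markers ran from 4698 to 5376, all 9 genes present. Smooth muscle markers (6 genes) summed to 6882 in Het replicate 2 and to 3754 to 4289 on the others, with Acta2 at 4311 and Tagln at 2353 in Het replicate 2. The median of the 5 smooth muscle probe sets kept was nonetheless -0.36 from WT in Het replicate 2, where both Des probe sets read below WT. Erythroid markers (3 of 5 genes on the array) summed to 3039 there against 1062 to 1311. The 6 epicardial and mesothelial markers on the array summed to 224 in WT, 372 and 282 in the Het arrays and 235 in Hom, with Msln and Wt1 below the floor throughout.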

How the data were processed

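The authors deposited 1 linear intensity per probe set and array. From the values, each array had been scaled to a mean of 150.1 after 2% was left out at each end. The software behind them is not given in the sources used here. Log2 medians were set to their common mean, values were floored at their 25th percentile (an intensity of 19), and 64 control probe sets were left out. Probe sets were kept at a mean intensity of at least 62.6, the median over probe sets, which left 11313. Names came from the platform annotation, updated through gene identifiers (20364 of 20393 probe sets with 1 gene matched; 691 had several genes and 1606 none).

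Limma 3.58.1 (R 4.3.3) was fitted to 3 groups over all probe sets kept, with Benjamini-Hochberg adjustment at 0.05. The only replicates, the Het pair, gave 1 residual degree of freedom, so the lone WT and Hom arrays were assumed to vary like that pair. Limma moderates each SE towards the spread over all probe sets. For the members tested, SEs of the comparisons with Het ran only from 0.49 to 0.54, so they are not each gene's own spread. In simulated data for Hom minus WT with 11313 probe sets, 50 were changed at each size. Limma called 2% of those changed 2-fold, 30% at 4-fold and 78% at 8-fold, and 11 unchanged ones. Noise on every simulated array came from the gaps of the Het pair. The median gap of that pair was 0.40 log2 units, against 0.19 between Hom and WT. These shares may therefore not hold for the real WT and Hom arrays. The number of arrays limits precision. Members, lists and the rule for named genes (every member probe set, the 5 nearest to Col12a1, and, in each of 6 matrix gene lists, the extremes of Hom minus WT, 2 at each end) were chosen with earlier results of these data known. Alternatives covered scaling, filter, floor, left-out Het arrays, 1 probe set per gene, and moderation of the spread. Figures used matplotlib 3.10.9.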

Additional observations from a re-analysis of the deposited data

How the results depend on the processing

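Under every alternative run, no collagen of the set was called by limma. The filter at the 75th percentile called 1 probe set elsewhere for Het minus WT (Ppbp, limma adjusted p = 0.0302) and dropped Col12a1, leaving 0 of 10 members 2-fold apart between Hom and WT. Members above both Het arrays in Hom numbered 11 after quantile normalization, 11 with the scaling as deposited and 3 of 9 with 1 probe set per gene (18.7% of all genes there). They numbered 8 to 10 of 13 with a Het array left out, which leaves no test, but then 34.6% and 46.8% of all probe sets did so. The median Het minus WT difference was -0.41 with the scaling as deposited. The Hom minus Het median was 0.35 after quantile normalization and 0.30 with the scaling as deposited, and the Hom minus WT median 0.10 with 1 probe set per gene. Under the 2 other scalings, 31 of 78 single values moved by more than the SD of the Het pair. Signs held for 11 of 13 probe sets for Het minus WT, 11 for Hom minus WT and 6 for Hom minus Het. Col12a1 read 1.95 to 2.03 for Hom minus WT in the 8 settings that kept it, but only the 2 other scalings could change that value. Quantile normalization gave 2.03 and the authors' own scale 1.99. The filter, the floor, left-out Het arrays and 1 probe set per gene reuse the same WT and Hom readings for the 13 probe sets. For Hom minus WT, this range and the 11 signs that held therefore test the scaling only. No paired analysis was possible because WT and Hom have 1 array each, and their titles carry no number that links them to a Het array.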
